A study of Mus musculus with 4 samples.

Results

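The RNA levels of 42 genes of mitosis and the G2/M transition were followed in cultured keratinocytes (KCs), the main cells of the epidermis, one library at a time. The genes were chosen by name, as known parts of the machinery of cell division, with earlier results of these data known. All 42 were found among the 25814 genes listed for each library. All 42 also passed the filter on low counts, which left 12614 genes for testing. Adult 129/sv mice gave the tail skin from which the KCs were prepared, and the primary cultures were kept untreated in medium without serum and with little calcium. Of the 4 libraries of polyadenylated RNA, 2 were labelled wild-type (WT) and 2 Nfat5-Knockout (Nfat5-/-), a genotype named for the loss of the osmotic stress transcription factor NFAT5. Per the study's methods the knockout and its WT littermates were all kept on the 129/sv background, and mice of this kind are described there as small, with atrophic kidneys and permanent hypernatremia. The labels describe the replicates of each genotype as independent experiments. They do not say from which animals a library came or how long its cells had been in culture.

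A cell commits to mitosis when cyclin-dependent kinase 1 (CDK1), bound to cyclin B and switched on by CDC25 phosphatases, becomes active at the end of G2. The spindle then forms, the checkpoint at the kinetochores holds the anaphase-promoting complex in check until every chromosome is attached, and this complex with its activator CDC20 marks cyclin B and securin for destruction. Most of these genes are switched on together in G2, largely through CCAAT boxes bound by NF-Y and a short element called CHR (cell cycle genes homology region), at which MuvB complexes with B-MYB and FOXM1 act, and in the epidermis such cycling cells belong to the basal layer.

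Most of the promoters held the letters of this control. Windows from 250 bases before to 50 bases after the start site were held for 36 of the 42 genes (39 windows, RefSeq sequences of the assembly GRCm38.p6). Both strands were searched for CHR, written TTTGAA in one form and TTCGAA in the other, for the box CCAAT, and for an E2F site, written TTTGGCGC, TTTCGCGC, TTTGCCGC or TTTCCCGC. CHR letters were present in 32 windows (82.1%), against 19.2% of all promoter windows of the mouse, and CCAAT in 30 (76.9%), against 37.4%. Both together were present in 28 windows (71.8%), against 7.52% of all promoters. The E2F letters were found in 1 member window (2.56%), in the promoter of Cdk1, against 2.26% of all promoters and 33.3% of the 33 windows of a list of S phase genes. The S phase list had CHR letters in 15.2% of its windows. A match is a match of letters, and binding was not measured. The 4 most abundant members with both motifs are shown, since most of the set held both motifs. The place of the motifs differed between the 4. Each is printed 5′ to 3′ on the strand of its gene, with CHR and CCAAT letters in capitals, also where they lie on the other strand so that CHR then reads TTCAAA and the box ATTGG.
Cdc20: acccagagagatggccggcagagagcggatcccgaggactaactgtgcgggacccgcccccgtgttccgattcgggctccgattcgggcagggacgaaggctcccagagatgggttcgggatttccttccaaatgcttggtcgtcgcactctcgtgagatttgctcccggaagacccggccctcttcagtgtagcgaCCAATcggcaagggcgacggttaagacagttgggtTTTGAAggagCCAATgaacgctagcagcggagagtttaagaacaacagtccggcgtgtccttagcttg
Plk1: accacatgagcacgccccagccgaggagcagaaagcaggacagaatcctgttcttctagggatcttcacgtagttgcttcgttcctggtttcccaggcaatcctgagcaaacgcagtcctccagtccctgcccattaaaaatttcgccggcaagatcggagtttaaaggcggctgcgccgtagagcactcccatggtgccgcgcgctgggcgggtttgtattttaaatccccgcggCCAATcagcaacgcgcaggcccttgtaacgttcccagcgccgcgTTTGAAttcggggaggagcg
Ube2c: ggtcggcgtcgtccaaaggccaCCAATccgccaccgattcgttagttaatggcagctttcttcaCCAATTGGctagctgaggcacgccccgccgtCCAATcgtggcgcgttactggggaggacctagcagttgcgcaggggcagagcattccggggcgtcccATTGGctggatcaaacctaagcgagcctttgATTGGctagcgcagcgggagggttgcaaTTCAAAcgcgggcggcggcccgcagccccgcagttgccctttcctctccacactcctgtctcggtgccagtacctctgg
Bub3: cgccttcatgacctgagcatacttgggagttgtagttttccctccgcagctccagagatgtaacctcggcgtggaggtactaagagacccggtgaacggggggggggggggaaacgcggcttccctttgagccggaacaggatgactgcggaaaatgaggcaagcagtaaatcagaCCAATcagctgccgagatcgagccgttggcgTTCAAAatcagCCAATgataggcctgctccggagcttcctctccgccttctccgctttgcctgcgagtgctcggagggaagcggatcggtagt
The window of Cdc20 is chr4:118437294-118437593 (minus strand), that of Plk1 chr7:122159185-122159484 (plus strand), that of Ube2c chr2:164769679-164769978 (plus strand) and that of Bub3 chr7:131560120-131560419 (plus strand). In the Cdc20 window the CHR letters lay 18 bases before the start site, between CCAAT letters 53 and 8 bases before it. In the Bub3 window the order was the same, with CCAAT at 74 and 32 bases and CHR at 43 bases before the start. The Ube2c window held 6 CCAAT matches, a pair of which share bases, and Plk1 held its CHR letters 30 bases after the start.

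Depth was between 16219445 and 23494436 gene reads per library, so that 3 reads, the smallest level taken as seen, were 0.128 to 0.185 CPM (counts per library size, scaled so that each library sums alike). The libraries of a group were separate libraries by their counts, since the chi-square over genes was 16.7 per degree of freedom in WT and 17.3 in Nfat5-/-, far over sampling noise. The gene that was targeted did not tell the labels apart, since Nfat5 read 1.67 and 3.0 RPKM (reads corrected for exon length and for library depth) under the WT label, against 2.02 and 2.78 RPKM under the Nfat5-/- label (log2 fold change 0.09, SE 0.26, edgeR adjusted p 0.913). Totals over a whole gene cannot show whether a stretch of it is missing, so they neither bear out the labels nor go against them, and the groups are named by label. The KC markers Krt5 and Krt14 lay between 4990.4 and 6985 RPKM in every library, and 8 KC markers summed to between 11184 and 13014 RPKM, although Krt15 was at 0.440 RPKM or less. Summed markers of fibroblasts (1.85 RPKM or less), immune cells (3.90 RPKM or less) and endothelium (0.777 RPKM or less) were low, and Dcn, Lum, Col3a1, Cd3e, Emcn and Cd207 were listed at 0 in at least 1 library.

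The mitotic genes separated 1 library from the other 3, and this was the second Nfat5-/- library. Together they took 29176 reads in WT replicate 1 (0.180% of all gene reads, 95% Wilson interval 0.178% to 0.182%), 37135 in WT replicate 2 (0.172%, 0.170% to 0.174%), 40807 in Nfat5-/- replicate 1 (0.174%, 0.172% to 0.175%) and 23617 in Nfat5-/- replicate 2 (0.127%, 0.125% to 0.128%). These intervals cover counting error only. The median member stood at 10.8 and 10.3 RPKM in WT, at 10.6 RPKM in Nfat5-/- replicate 1 and at 7.03 RPKM in Nfat5-/- replicate 2. The first Nfat5-/- library thus lay between the WT libraries in its share of reads, and the second lay below all 3. In RNA from a whole culture, fewer dividing cells and less of each RNA per cell cannot be told apart.

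**Figure D1:**
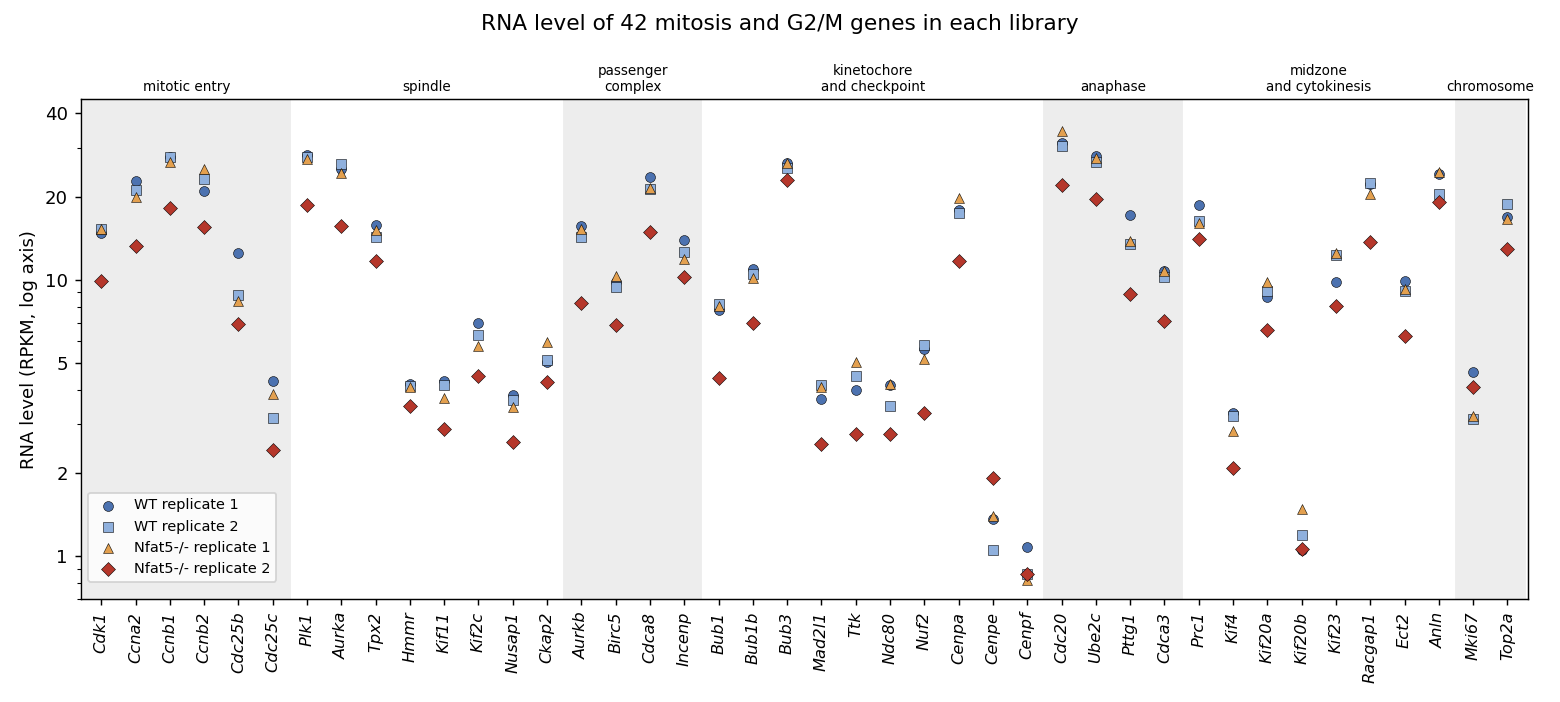
RNA level (RPKM, log axis) of the 42 genes in each of the 4 libraries, grouped by role. Circles and squares are the WT replicates, triangles and diamonds the Nfat5-/- replicates. The diamond of Nfat5-/- replicate 2 is the lowest point in most columns, except for Cenpe, Cenpf, Mki67 and, narrowly, Kif20b, while the triangle lies among the WT points or near them.

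On the scale of log2 CPM after TMM scaling, Nfat5-/- replicate 2 was the lowest of the 4 libraries for 38 of 42 genes, against 31% of all genes tested. WT replicate 2 was lowest for Cenpe and Mki67, WT replicate 1 for Kif20b and Nfat5-/- replicate 1 for Cenpf. Nfat5-/- replicate 2 lay below Nfat5-/- replicate 1 for 39 genes (all genes 50.5%), with a median log2 difference of -0.51, a level 0.70 times that of replicate 1. The median log2 difference between the WT libraries was -0.07, and over all genes tested neither median lay further than 0.01 from 0. The gap between the Nfat5-/- libraries was wider than the gap between the WT libraries for 38 of 42 genes, against 48% of all genes. Its median size was 0.51 in Nfat5-/- and 0.11 in WT on the log2 scale, where all genes gave 0.16 in both.

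Against the mean of the WT libraries, the median member differed by -0.01 log2 in Nfat5-/- replicate 1 and by -0.53 log2 (0.693-fold) in Nfat5-/- replicate 2. Nfat5-/- replicate 1 lay above both WT libraries for 13 genes (all genes 34.4%) and below both for 17 (all genes 35.6%). With 1 library against others such differences describe libraries and carry no test of genotype.

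**Figure D2:**
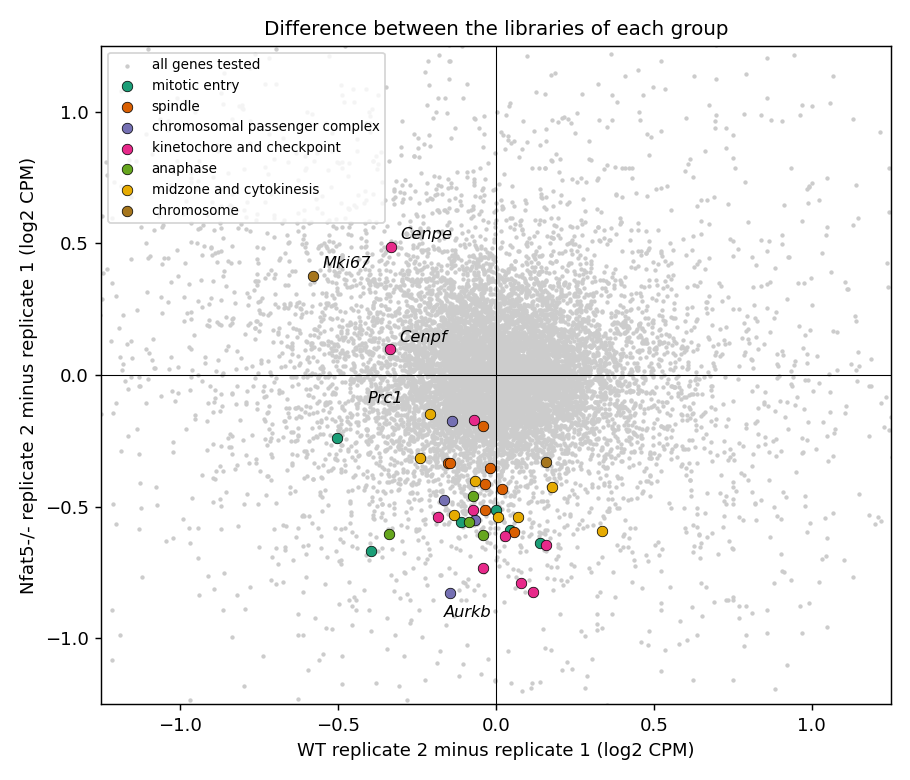
Difference between the libraries of each genotype, WT on the horizontal axis and Nfat5-/- on the vertical axis (replicate 2 minus replicate 1, log2 CPM), for all genes tested within the plotted range (grey) and the 42 mitosis and G2/M genes (coloured by role). Members spread little to the left or right of zero and sit below it, around -0.51, and 3 members (Cenpe, Mki67, Cenpf) lie above it and to the left.

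Between the genotypes, 0 of 42 genes passed the edgeR quasi-likelihood test at an adjusted p of 0.05, which 1.27% of all genes passed (0.325% lower and 0.943% higher in Nfat5-/-). At an unadjusted p under 0.05 there was 1 member, Cdc25b, against 14.6% of all genes. DESeq2 also gave 0 members at an adjusted p under 0.05 (all genes 3.38%) and 1 at an unadjusted p under 0.05 (all genes 10.7%). The fitted log2 fold change was below 0 for 39 members (all genes 52%), with a median of -0.24 against -0.01 over all genes, and its standard error was between 0.11 and 0.27. The groups did not overlap for 16 members that were lower in Nfat5-/- (all genes 24.5%) and for 1, Cenpe, that was higher (all genes 23.3%), and they overlapped for 25. An exact permutation test of a single value with 2 against 2 libraries cannot give a p below 0.333.

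The genotype comparison rested on the second Nfat5-/- library. Without it, the median member log2 fold change was -0.01, with 21 of 42 members below 0, and without the first Nfat5-/- library it was -0.53, with 28 members at an unadjusted p under 0.05 (all genes in this fit 14.2%) and 0 at an adjusted p under 0.05 (all genes 0.309%). Without the second, 18 of the 39 members below 0 changed sign, namely Cdk1, Ccnb2, Cdc25c, Tpx2, Aurkb, Birc5, Bub1, Bub3, Mad2l1, Ttk, Ndc80, Cenpa, Cdc20, Ube2c, Cdca3, Kif20a, Kif23 and Anln. In both cases the lone Nfat5-/- library was assumed to vary as the WT libraries do. Markers of other cells moved as well. The summed smooth muscle markers came to 184 and 151 RPKM in the WT libraries, against 518 and 819 RPKM in Nfat5-/- replicates 1 and 2. All 4 that were tested (Acta2, Tagln, Cnn1 and Myh11) passed the edgeR threshold, higher in Nfat5-/- (all genes 0.943%). Des, at or near 0, was not tested. Summed melanocyte markers came to 7.54 and 7.20 RPKM in the WT libraries, against 2.30 and 3.2 RPKM in Nfat5-/- replicates 1 and 2. Of the 5 tested, 1 was called lower with edgeR (all genes 0.325%) and 2 were called with DESeq2 (all genes 3.38%). For 4 of them the groups were apart, with Nfat5-/- lower (all genes 24.5%). Summed fibroblast markers were low throughout but highest in Nfat5-/- replicate 2. They came to 0.653 and 0.539 RPKM for WT and to 0.934 and 1.85 RPKM for Nfat5-/- replicates 1 and 2. Of the 3 tested 0 passed the threshold (all genes 1.27%), and Thy1 had the largest log2 fold change (2.65, SE 0.61, edgeR adjusted p 0.102). The part of these markers in the result was not tested.

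**Figure D3:**
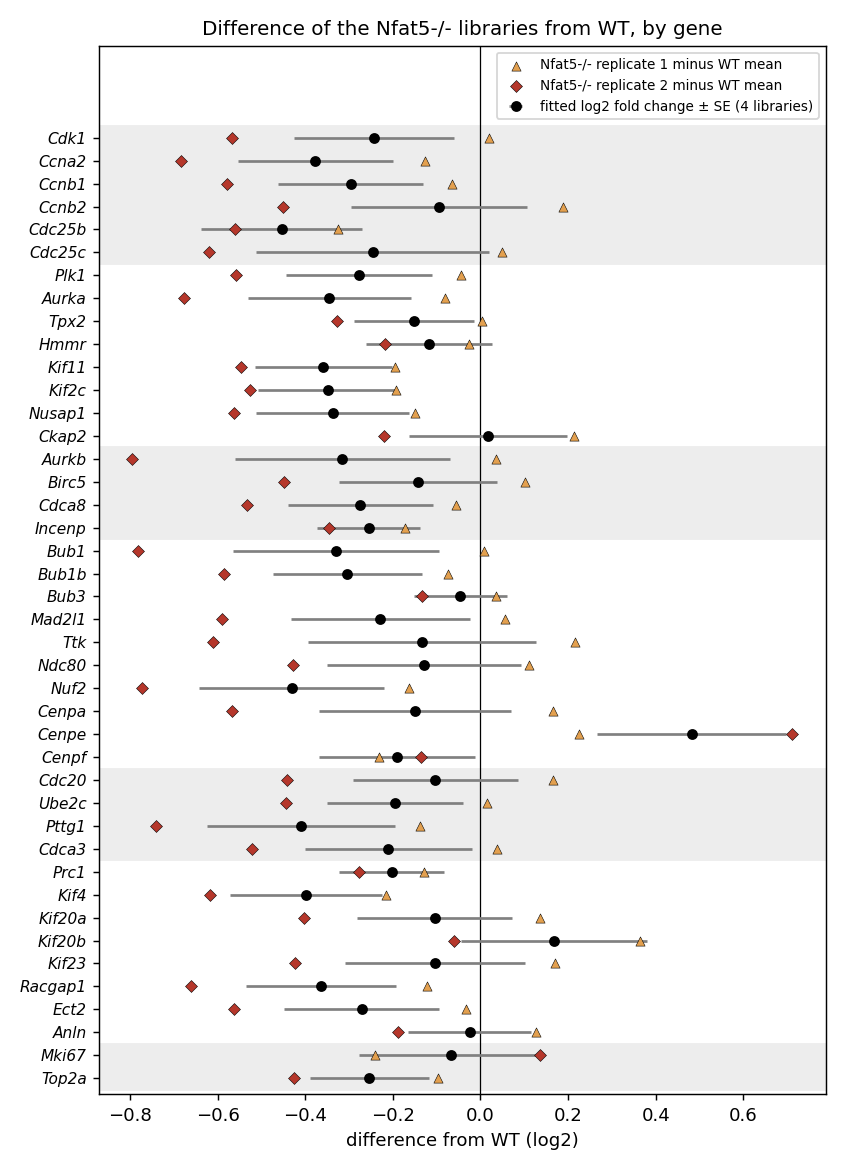
Difference from WT (log2) of each of the 42 genes. Black points with bars are the fitted log2 fold change ± SE of the edgeR fit to 4 libraries, and triangles and diamonds are Nfat5-/- replicates 1 and 2 minus the WT mean on the log2 CPM scale. The triangles scatter around 0 (median -0.01), the diamonds around -0.53, and the fitted values lie between them.

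Among the genes of mitotic entry all 6 had their lowest level in Nfat5-/- replicate 2, with a median log2 difference from replicate 1 of -0.57. Cdk1, the kinase that drives mitosis (chromosome 10, 69335146 to 69352938, GRCm38), stood at 14.8 and 15.3 RPKM in the WT libraries and at 15.3 and 9.93 RPKM in the Nfat5-/- libraries. Ccnb1, cyclin B1 and the main partner of CDK1 (chromosome 13, 100778650 to 100786570), stood at 27.9 and 27.9 RPKM in the WT libraries and at 26.7 and 18.2 RPKM in the Nfat5-/- libraries. In both genes 3 libraries were nearly level and the other, Nfat5-/- replicate 2, was lower, at 0.666 times replicate 1 for Cdk1 and 0.70 times for Ccnb1 (CPM). The genotype log2 fold changes were -0.24 (SE 0.18, edgeR adjusted p 0.600) for Cdk1 and -0.30 (SE 0.17, adjusted p 0.468) for Ccnb1. Ccnb2, cyclin B2, was highest in Nfat5-/- replicate 1, with 20.9 and 23.1 RPKM in the WT libraries and 25.2 and 15.5 RPKM in the Nfat5-/- libraries, so that the groups overlapped (log2 fold change -0.09, SE 0.20, edgeR adjusted p 0.878). Cdc25b, the phosphatase that starts CDK1 activation (chromosome 2, 131186949 to 131198497), had another pattern, with 12.5 and 8.84 RPKM in the WT libraries and 8.37 and 6.93 RPKM in the Nfat5-/- libraries. Both Nfat5-/- libraries lay below both WT libraries, and the spread between the WT libraries (-0.50 log2 from replicate 1 to 2) was larger than that between the Nfat5-/- libraries (-0.24). It had the lowest log2 fold change of all 42 (-0.45, SE 0.18, edgeR p 0.0410 and adjusted p 0.322). This rank did not hold in every fit. With all libraries kept, Nuf2 was lower with a replicate block (-0.463 against -0.445) and with limma-trend on log2(RPKM + 0.1) (-0.461 against -0.459). Pttg1 was lower with limma-trend on log2(RPKM + 1) (-0.423 against -0.419). Nor did the rank hold with every library left out. The log2 fold change of Cdc25b was -0.18 without WT replicate 1, where several members were lower (Nuf2 -0.44), and -0.69 without WT replicate 2. Without Nfat5-/- replicate 1 it was -0.58, above Aurkb (-0.80), Nuf2 (-0.78), Pttg1 (-0.75) and Kif4 (-0.62). Its reads can include some of Spef1, which overlaps it. The other entry genes, Ccna2 and Cdc25c, differed between the Nfat5-/- libraries by -0.56 and -0.67 log2.

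The spindle group holds the kinases Plk1 and Aurka, the AURKA activator Tpx2, the motors Kif11 and Kif2c, and the microtubule-binding proteins Hmmr, Nusap1 and Ckap2. All 8 were lowest in Nfat5-/- replicate 2, with log2 differences from replicate 1 between -0.60 (Aurka) and -0.19 (Hmmr), and for 6 of 8 the groups did not overlap, with Nfat5-/- lower (all genes 24.5%). Plk1, the polo kinase needed for centrosome maturation and mitotic entry (chromosome 7, 122159439 to 122169873), stood at 28.4 and 27.9 RPKM in the WT libraries and at 27.3 and 18.6 RPKM in the Nfat5-/- libraries. Its first Nfat5-/- library lay just under the WT libraries and its second at 0.701 times the first (CPM) (genotype log2 fold change -0.28, SE 0.17, edgeR adjusted p 0.508). Kif11, the motor that pushes the spindle poles apart, stood at 4.29 and 4.18 RPKM in the WT libraries and at 3.73 and 2.88 RPKM in the Nfat5-/- libraries. Here the step was divided, with -0.20 log2 from the WT mean to replicate 1 and -0.35 from there to replicate 2 (fold change -0.36, SE 0.16, edgeR adjusted p 0.353). Ckap2, a spindle protein, stood at 5.06 and 5.14 RPKM in the WT libraries and at 5.94 and 4.28 RPKM in the Nfat5-/- libraries, so that the Nfat5-/- libraries enclosed the WT libraries and the log2 fold change was 0.02 (SE 0.18, edgeR adjusted p 0.979).

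The chromosomal passenger complex, which corrects wrong attachments at the centromere and later acts in cytokinesis, has the kinase Aurkb and the partners Birc5 (survivin), Cdca8 (borealin) and Incenp. Aurkb (chromosome 11, 69045647 to 69051664) stood at 15.6 and 14.3 RPKM in the WT libraries and at 15.3 and 8.25 RPKM in the Nfat5-/- libraries, the largest drop between the Nfat5-/- libraries among the 42 genes (-0.83 log2). Cdca8 stood at 23.5 and 21.3 RPKM in the WT libraries and at 21.5 and 14.9 RPKM in the Nfat5-/- libraries, and Birc5 at 9.83 and 9.41 RPKM in the WT libraries and at 10.3 and 6.85 RPKM in the Nfat5-/- libraries. In all 3 the first Nfat5-/- library was at or above the lower WT library and the second was below every other. Incenp, the scaffold of the complex, differed between the Nfat5-/- libraries by only -0.17 log2, and its groups did not overlap. The genotype log2 fold changes of the 4 genes were between -0.31 (Aurkb, SE 0.25, edgeR adjusted p 0.613) and -0.14 (Birc5, SE 0.18, adjusted p 0.769). The subunits thus did not differ by a like amount between the Nfat5-/- libraries.

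The kinetochore and checkpoint group varied most. Of its 10 genes 8 were lowest in Nfat5-/- replicate 2, and the log2 difference between the Nfat5-/- libraries ran from -0.83 (Ttk, the checkpoint kinase MPS1) through -0.79 (Bub1) and -0.73 (Cenpa, the histone of centromeres) to 0.49 (Cenpe). Bub3, a checkpoint protein that docks BUB1 at kinetochores, stood at 26.5 and 25.3 RPKM in the WT libraries and at 26.5 and 23.0 RPKM in the Nfat5-/- libraries. It was the most abundant of the group and moved little (log2 fold change -0.05, SE 0.11, edgeR adjusted p 0.889). Of its exon reads 29.1% were placed at a single site, and on those alone the log2 difference between the Nfat5-/- libraries was -0.18 against -0.17. Nuf2, a subunit of the NDC80 complex that holds the microtubule end, stood at 5.61 and 5.82 RPKM in the WT libraries and at 5.15 and 3.30 RPKM in the Nfat5-/- libraries, the lowest log2 fold change of the group (-0.43, SE 0.21, edgeR adjusted p 0.405). Its partner Ndc80 overlapped between the groups, with a log2 fold change of -0.13, and the checkpoint gene Bub1b (BUBR1) did not, with -0.30. Cenpe, the kinesin that carries chromosomes to the spindle equator (chromosome 3, 135212537 to 135273611), went the other way, with 1.36 and 1.05 RPKM in the WT libraries and 1.40 and 1.92 RPKM in the Nfat5-/- libraries. It was the only member whose Nfat5-/- libraries both lay above both WT libraries, and its log2 fold change, 0.48 (SE 0.22, edgeR adjusted p 0.363), was the highest of the 42. It was 0.22 without Nfat5-/- replicate 2, where Kif20b was higher at 0.37, and 0.32 without WT replicate 2.

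The 4 anaphase genes had like drops between the Nfat5-/- libraries, from -0.61 to -0.46 log2. In none of them were the groups apart (all genes 47.8% apart in either direction, 24.5% apart and lower in Nfat5-/-), and 4 genes are few for such a count. Cdc20, the activator of the anaphase-promoting complex (chromosome 4, 118432901 to 118437352), was the most abundant of the 42 genes, with 31.2 and 30.4 RPKM in the WT libraries and 34.6 and 22.1 RPKM in the Nfat5-/- libraries. The Nfat5-/- libraries thus held both its highest and its lowest level, and the log2 fold change was -0.10 (SE 0.19, edgeR adjusted p 0.851). Cdc20 overlaps Elovl1, and no source says that strand was used in counting. Pttg1, securin, which blocks separase until anaphase, stood at 17.1 and 13.5 RPKM in the WT libraries and at 13.8 and 8.87 RPKM in the Nfat5-/- libraries (log2 fold change -0.41, SE 0.22, edgeR adjusted p 0.441). Ube2c, the ubiquitin-conjugating enzyme of the complex, and Cdca3 had log2 fold changes of -0.19 and -0.21.

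Among the 8 genes of the spindle midzone and cytokinesis all were lower in Nfat5-/- replicate 2 than in replicate 1, with log2 differences between -0.59 (Kif23) and -0.15 (Prc1). Anln, anillin, the scaffold of the contractile ring, stood at 24.1 and 20.5 RPKM in the WT libraries and at 24.4 and 19.1 RPKM in the Nfat5-/- libraries, which overlapped (log2 fold change -0.02, SE 0.14, edgeR adjusted p 0.956). Kif4, a chromosome and midzone kinesin of the X chromosome, stood at 3.30 and 3.22 RPKM in the WT libraries and at 2.84 and 2.08 RPKM in the Nfat5-/- libraries, with both Nfat5-/- libraries below WT (log2 fold change -0.40, SE 0.17, edgeR adjusted p 0.353). Kif20b stood at 1.05 and 1.2 RPKM in the WT libraries and at 1.48 and 1.06 RPKM in the Nfat5-/- libraries (log2 fold change 0.17, SE 0.21, edgeR adjusted p 0.769). Its second Nfat5-/- library lay between the WT libraries, so that the level of the first set its sign. Of the RHOA regulators at the midzone, Racgap1 had groups that did not overlap (log2 fold change -0.36), and Ect2 (-0.27) and Kif23 (-0.10) had groups that did. Kif20a, a midzone kinesin, had groups that overlapped (-0.10), with 75.6% of its exon reads at a single site. Prc1, the protein that bundles midzone microtubules, stood at 18.7 and 16.3 RPKM in the WT libraries and at 16.0 and 14.1 RPKM in the Nfat5-/- libraries, and both of the latter were below WT. It had 30.2% of its exon reads at a single site, and on those alone its difference between the Nfat5-/- libraries was -0.31 in place of -0.15 log2. On such reads Incenp (-0.175), Bub3 (-0.182), Hmmr (-0.183) and Cdc25b (-0.234) dropped less than Prc1.

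The proliferation markers Mki67 and Top2a were not alike. Mki67, the gene of Ki-67, which coats mitotic chromosomes (chromosome 7, 135689784 to 135716361), stood at 4.65 and 3.14 RPKM in the WT libraries and at 3.22 and 4.10 RPKM in the Nfat5-/- libraries. Top2a, the topoisomerase that untangles sister chromatids (chromosome 11, 98992943 to 99024189), stood at 16.8 and 18.7 RPKM in the WT libraries and at 16.7 and 12.9 RPKM in the Nfat5-/- libraries. For Mki67 the second Nfat5-/- library was the higher of the pair and both lay within the range of WT, and for Top2a both lay below WT. Neither passed the test, with log2 fold changes of -0.07 (SE 0.21, edgeR adjusted p 0.917) and -0.25 (SE 0.14, adjusted p 0.447).

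The 3 genes that were higher in Nfat5-/- replicate 2 than in replicate 1, Cenpe (0.49 log2), Mki67 (0.38) and Cenpf (0.10), were among the longest of the set, with 7910, 10061 and 11346 bases of annotated exon. All 3 were also lower in WT replicate 2 than in WT replicate 1, with log2 differences of -0.33, -0.58 and -0.34. Over the 42 genes the difference between the Nfat5-/- libraries ran with log2 exon length (Pearson 0.67, Spearman 0.60, n = 42), and over all genes tested it did so more weakly (0.15 and 0.24, n = 12556 genes with an exon length). The genes share their libraries, so that this is a description. The median log2 difference over all genes went from -0.08 in genes of 1000 to 2000 bases to 0.16 in genes of 8000 bases or more. In the class of 1000 to 2000 bases the 7 members had a median of -0.64. The difference between the WT libraries had no such relation over the members (Pearson -0.15, Spearman 0.01). Mad2l1, a checkpoint gene listed with 8032 bases, was an exception at -0.65. When the trend over all genes was taken out, a step chosen after seeing the data, the median member difference was -0.48, Nfat5-/- replicate 2 was lowest for 40 genes, Cenpe stood at 0.37, Mki67 at 0.21 and Cenpf at -0.09. The part of transcript length in the result was not tested beyond this.

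**Figure D4:**
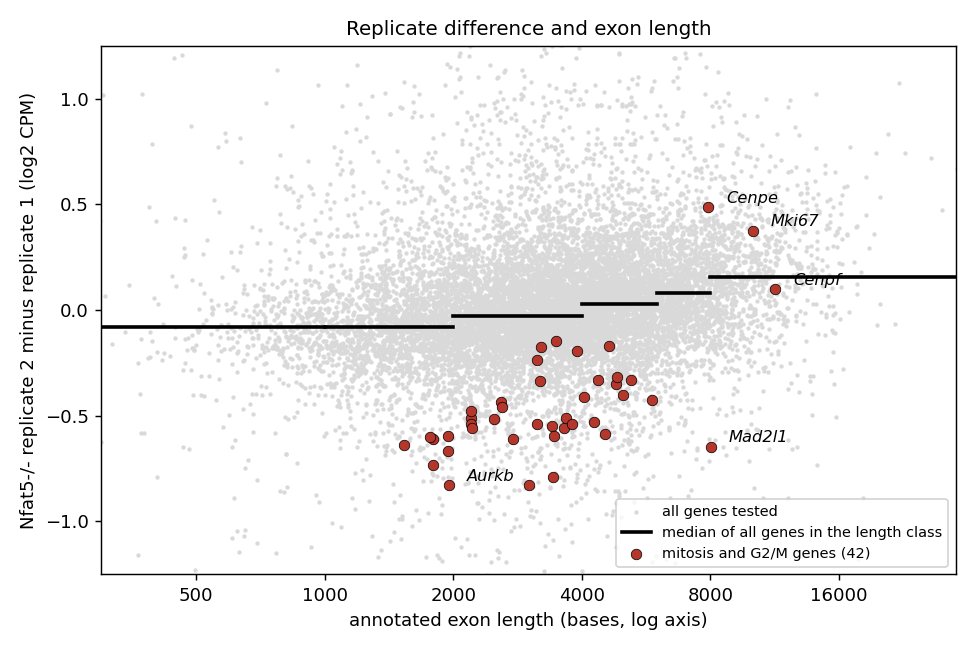
Difference between the Nfat5-/- libraries (replicate 2 minus replicate 1, log2 CPM) against annotated exon length (bases, log axis) for all genes tested within the plotted range (grey) and the 42 mitosis and G2/M genes (red). Black lines are medians of all genes in a length class and climb from -0.08 to 0.16, and Cenpe, Mki67 and Cenpf lie at the long end, with Mad2l1 below them.

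Reads in introns come mostly from RNA that is not yet spliced, and they divided the libraries in another way than the exon reads. Over the 42 genes the WT libraries held 288 and 384 of them (17.8 and 17.8 CPM, 95% Poisson intervals 15.8 to 19.9 and 16.0 to 19.6). The Nfat5-/- libraries held 272 and 188 reads, or 11.6 CPM (10.2 to 13) and 10.1 CPM (8.69 to 11.6). These intervals too cover counting error only. Both Nfat5-/- libraries lay below both WT libraries, also replicate 1, whose exon reads were at the level of WT. For 21 of 42 genes the intron CPM did not overlap between the groups and were lower in Nfat5-/-, against 34.2% of all genes with intron reads, and for 0 they were higher, against 9.64%. Counts for single genes were small, for Top2a 25 and 52 reads under WT and 36 and 22 under Nfat5-/-, so that no gene was tested alone. In the 29 members that overlap no other listed gene the sums were 12.6 and 13.7 CPM for WT and 8.43 and 7.67 CPM for Nfat5-/-. The pattern was not particular to the 42 genes. The list of 34 S phase genes summed to 14.2 and 13.4 CPM for WT and to 7.92 and 7.99 CPM for Nfat5-/-. In that list 18 genes were apart and lower (all genes 34.2%) and 0 were higher (all genes 9.64%). Over all genes, introns took 1.97% and 1.94% of the reads for WT and 1.85% and 1.79% for Nfat5-/-, and the part of this in the member sums was not tested.

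Further lists of cell division genes were set beside the 42. Of 24 other kinetochore genes, 22 were lowest in Nfat5-/- replicate 2, and their median difference from WT was -0.06 log2 in Nfat5-/- replicate 1 and -0.50 in replicate 2. The other centrosome and spindle genes had 16 of 21 lowest there, and condensin and cohesin 14 of 19. The list of the anaphase-promoting complex, whose core subunits are present throughout the cycle, had 10 of 18. Besides core subunits this list holds Fzr1, Ube2s, Fbxo5 and Espl1, and of these all but Fzr1 were lowest there. In these 4 lists 0 genes passed an adjusted p of 0.05 with edgeR or DESeq2 (all genes 1.27% and 3.38%), and 1, 2, 2 and 0 had an unadjusted p under 0.05 with edgeR, in the same order, all of them lower (1, 1, 1 and 0 with DESeq2). Over all genes 6.47% were lower at that level with edgeR, and 10.7% passed it in either direction with DESeq2. The lowest log2 fold changes were those of Nsl1 (-0.95, SE 0.22, adjusted p 0.108), Stil (-0.53, SE 0.14, adjusted p 0.144), Ncapg2 (-0.55, SE 0.17, adjusted p 0.197) and Fbxo5 (-0.50, SE 0.24, adjusted p 0.390), in turn.

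The list of 34 S phase genes (replication factors and nucleotide enzymes) was lowest in Nfat5-/- replicate 2 for all 34, and 26 of its genes were below both WT libraries in replicate 1 as well (all genes 35.6%). Its summed level was 620 and 612 RPKM in the WT libraries, against 565 and 401 RPKM in Nfat5-/- replicates 1 and 2, where the mitotic genes summed to 549, 527, 537 and 376 RPKM. Its median difference from WT was -0.16 log2 in replicate 1 and -0.63 in replicate 2, and 26 of its 34 genes lay apart and lower, where 16 of the 42 and 24.5% of all genes did. With edgeR 0 of 34 passed an adjusted p of 0.05 (all genes 1.27%) and 1, Mcm6, did with DESeq2 (all genes 3.38%). With edgeR 15 had an unadjusted p under 0.05 and a lower level (all genes 6.47%, DESeq2 14 in either direction, all genes 10.7%), and the median log2 fold change was -0.38. Whether the lists differ in genotype effect was not tested.

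The transcriptional regulators of G2/M genes were in part lower in the second Nfat5-/- library too. Foxm1, the forkhead factor of G2/M promoters, stood at 9.35 and 10.2 RPKM in the WT libraries and at 7.98 and 5.65 RPKM in the Nfat5-/- libraries (log2 fold change -0.51, SE 0.16, edgeR adjusted p 0.217), with both Nfat5-/- libraries below WT. Mybl2, which encodes B-MYB, stood at 13.2 and 12.3 RPKM in the WT libraries and at 11.7 and 7.58 RPKM in the Nfat5-/- libraries (log2 fold change -0.39, SE 0.18, edgeR adjusted p 0.388), also with both Nfat5-/- libraries below WT and the second the lower. Of the 16 genes in this list 9 were lowest in Nfat5-/- replicate 2 (all genes 31%). With edgeR 0 passed the test (all genes 1.27%), also with DESeq2 (all genes 3.38%). An unadjusted p under 0.05 was reached by 3 with either tool, all lower with edgeR (all genes 6.47% lower, DESeq2 10.7%). Among members, the difference between the Nfat5-/- libraries had a median of -0.48 log2 in the 29 genes with CHR letters (-0.83 to 0.38) and of -0.55 in the 7 without (-0.65 to 0.49), with ranges that overlapped.

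Of the CDK inhibitors, 4 of 7 had both Nfat5-/- libraries above both WT libraries (all genes 23.3%). Cdkn2a, which encodes the CDK inhibitor p16INK4a and the p53 activator p19ARF, stood at 11.8 and 14.6 RPKM in the WT libraries and at 53.8 and 72 RPKM in the Nfat5-/- libraries, and rose past the threshold (log2 fold change 2.27, SE 0.19, edgeR adjusted p 0.00579). Both Nfat5-/- libraries were several times above WT, including replicate 1, in which the mitotic genes were at WT level. Cdkn1a, which encodes p21, stood at 189 and 204 RPKM in the WT libraries and at 257 and 289 RPKM in the Nfat5-/- libraries (log2 fold change 0.50, SE 0.11, edgeR adjusted p 0.0968). Of the 7 CDK inhibitors tested, 1 was called, higher, where 0.943% of all genes were called higher. The 9 tested genes of G2 brakes had 0 calls with edgeR (all genes 1.27%) and 1 with DESeq2 (Cdkn1a, which is in both lists, all genes 3.38%). With edgeR 4 had an unadjusted p under 0.05 (all genes 14.6%), 3 of them lower (all genes 6.47%), and 5 of the 9 were lowest in Nfat5-/- replicate 2 (all genes 31%). Chek1, the kinase that restrains CDC25, stood at 3.76 and 2.96 RPKM in the WT libraries and at 2.42 and 1.41 RPKM in the Nfat5-/- libraries (log2 fold change -0.76, SE 0.26, edgeR adjusted p 0.255).

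**Figure D5:**
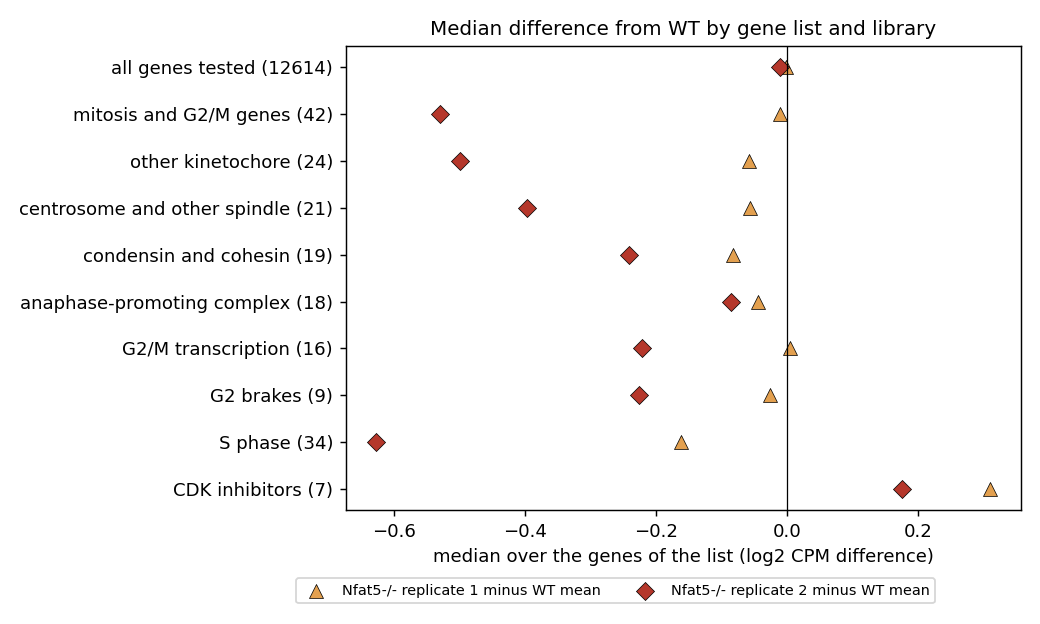
Median difference from the WT mean (log2 CPM) over the genes of each list, with the number tested in brackets, for Nfat5-/- replicate 1 (triangles) and replicate 2 (diamonds). For the mitosis and G2/M genes the triangle is at -0.01 and the diamond at -0.53, for S phase at -0.16 and -0.63, and for CDK inhibitors both lie above 0.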

How the data were processed

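Polyadenylated RNA of 4 KC libraries (2 labelled WT, 2 labelled Nfat5-/-) was sequenced as short single reads. The authors trimmed and aligned the reads with the CLC Genomics Workbench at default settings to GRCm38 and deposited read counts per gene (total, exon, intron and uniquely placed exon reads), not normalized. The authors also deposited RPKM, exon reads scaled to exon length and mapped reads, written with decimal commas. No batch or date is given, and no source says that strand was used in counting.

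Total gene reads were tested with edgeR 4.0.16 (R 4.3.3) by the quasi-likelihood method with filterByExpr, TMM factors and genotype as the sole term, two-sided, with Benjamini-Hochberg adjustment over the 12614 genes tested and a threshold of 0.05. The SE of a log2 fold change came from its F statistic. Levels between libraries were compared as log2 CPM with a prior count of 1, and levels between genes as RPKM. Alternatives were a replicate block, other scaling and filters, DESeq2 1.42.0, limma-trend (limma 3.58.1) on log2(RPKM + 1) and log2(RPKM + 0.1), exon and unique exon reads, leaving out each library, and, added after seeing the data, a correction for exon length. The procedure was tested on simulated data. The members and lists were chosen with earlier results of these data known. Values in every library are given for the most abundant member and those of lowest and highest log2 fold change in each role group, and for Mki67, Top2a, Plk1, Cdc20, Ccnb1 and Cdk1. They are also given for the genes with the largest drop (Aurkb), the smallest drop (Prc1) and the largest opposite difference (Cenpe) between the Nfat5-/- libraries, by total gene reads. Of the other lists, Foxm1, Mybl2, Cdkn2a, Cdkn1a and genes at the ends of a list in log2 fold change are named. Others were named after their values were seen. Promoters were printed for the 4 members of highest mean RPKM with both motifs. Sgo2a was not analysed here. Same-numbered libraries did not deviate together (correlation -0.06), so the numbers were not taken as pairs.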

Additional observations from a re-analysis of the deposited data

How the results depend on the processing

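The count of called members was 0 under every alternative except the test with no filter on low counts, where it was 1 (Cdc25b, adjusted p 0.0351). The median member log2 fold change lay between -0.26 and -0.23 under the alternatives that kept all libraries and between -0.53 and -0.0079 when 1 library was left out, the ends of this range belonging to Nfat5-/- replicates 1 and 2. The count of called genes lay between 25 and 391 with 1 library left out (198 without WT replicate 1, 391 without WT replicate 2, 39 and 25 without Nfat5-/- replicates 1 and 2). It was 1137 without a filter and 426 with DESeq2, and the cause was not tested. Members lowest in Nfat5-/- replicate 2 numbered 38 to 40, and their median log2 difference between the Nfat5-/- libraries was -0.55 to -0.48. In the fit with a replicate block, 132 genes and 0 members were called, the median member log2 fold change was -0.26, and 6 members had an unadjusted p under 0.05 (all genes 13.6%).

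Among the members with values in every library, these changed sign, all in log2 fold change. Ckap2 (0.02 as reported) was -0.0013 with the replicate block, -0.00037 with library totals, and -0.0100 and -0.0145 with limma-trend (pseudocounts 1 and 0.1). With 1 library left out, Cdk1 ran from -0.57 to 0.023, Ccnb2 from -0.45 to 0.19, Ckap2 from -0.22 to 0.22, Aurkb from -0.80 to 0.038, Birc5 from -0.45 to 0.10, Bub3 from -0.13 to 0.039, Cdc20 from -0.44 to 0.17, Kif20b from -0.067 to 0.37, Anln from -0.19 to 0.13 and Mki67 from -0.33 to 0.25. The positive ends belong to the fit without Nfat5-/- replicate 2, except for Mki67 (without WT replicate 1). Without Nfat5-/- replicate 2, 11 further members went from below to above 0 (Cdc25c, Tpx2, Bub1, Mad2l1, Ttk, Ndc80, Cenpa, Ube2c, Cdca3, Kif20a and Kif23), Kif23 also without WT replicate 2. The other 298 values of named members kept their direction and their side of the threshold, and Cdc25b without a filter was the single one to pass it.

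Depth put 95 to 2961 reads behind each member in each library. With 2 libraries a group, 1 library decided the sign of several members, as given above.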
